A study of Drosophila melanogaster with 6 samples.

Results

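The glial marker genes are 9 genes that label the glia of the fly brain and eye: repo, drpr, alrm, bdl, nrv2, wrapper, Inx2, Gli and moody. They were chosen by gene symbol, and each is read by 1 of the 18769 probe sets of the array, so that 9 probe sets of 9 genes stand among 11982 genes that have a probe set with a single symbol. Whole heads of adult Drosophila melanogaster were measured at 25 days (aged) and at 2 days (young), with 3 arrays per age. All flies had the strain background labelled W* and the genotype P{GawB}elavC155, an insertion at the neuronal gene elav that makes neurons express the yeast activator GAL4, and the labels name no gene under its control. Sex was not given. Whether the replicates of an age are separate batches of flies is not stated in the labels, so the p-values reflect array-to-array spread alone, possibly technical. Expression is given in RMA units (log2), where 1 unit is a 2-fold change.

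Glia of the adult fly fall into classes by position. Astrocyte-like glia send branches into the synaptic neuropil and clear transmitter, ensheathing glia line the neuropil, cortex glia enclose neuronal cell bodies, and wrapping glia enclose axons, including those of photoreceptors. Perineurial and subperineurial glia cover the brain as the blood-brain barrier, where septate junctions between subperineurial cells hold back the potassium-rich haemolymph. Nearly all of these cells, other than midline glia of the embryo, carry the homeodomain protein Repo. Several of the genes are also used outside glia: drpr in blood cells, and Inx2, Gli and nrv2 in epithelia.

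Of the 9 marker genes, 4 were lower in aged heads (bdl, nrv2, Inx2 and alrm), 1 was higher (Gli), and 4 did not pass (repo, drpr, moody and wrapper). The steepest fall was that of bdl, to 43.4% of its level in young heads, while repo stood at 98.2% of it. Among all probe sets, 21.7% passed in either direction, 8.7% lower and 13% higher in aged heads (limma, Benjamini-Hochberg adjusted p under 0.05). Of those calls 59.9% were higher, or 48.8% with each array centred on its median, which changed no call of a marker gene. Among the 3473 probe sets with a mean level between those of the dimmest and the brightest marker gene, 39.1% passed, 16.4% lower and 22.7% higher. The median difference of the 9 genes was -0.03 on the log2 scale, against -0.02 over all probe sets and 0.05 at the same levels. The median size of a difference regardless of sign was 0.42, against 0.15 over all probe sets and 0.21 at the same levels. At 5 of the 9 genes all aged arrays lay on 1 side of all young arrays, against 40.8% of all probe sets and 65.8% at the same levels.

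**Figure D1:**
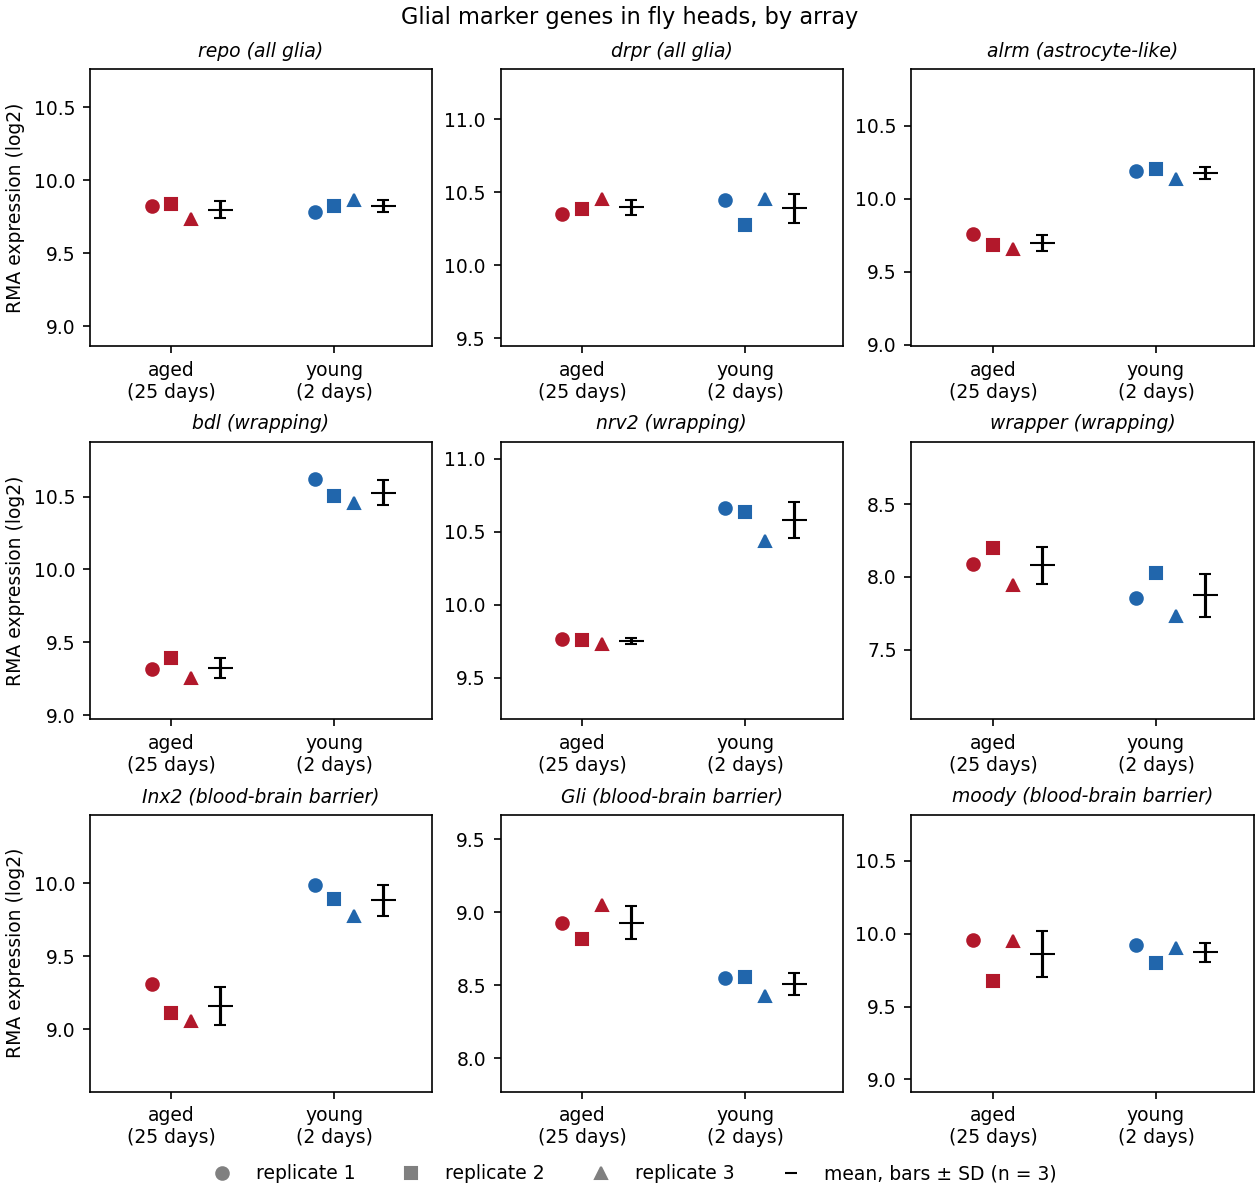
RMA expression on the log2 scale (vertical axes, each spanning the same range around its gene) of the 9 marker genes on 3 aged and 3 young arrays; symbols mark the replicate number and black bars the mean ± SD. The arrays of the ages stand apart for alrm, bdl, nrv2, Inx2 and Gli and overlap for repo, drpr, wrapper and moody.

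Between arrays of different ages Pearson's r was 0.984 to 0.9895, and within an age it was 0.991 to 0.998, computed over probe sets and therefore not over independent replicates. Young replicate 2 stood somewhat apart: at 155 probe sets it was at least 1 above each of the other arrays. The same held at 25 probe sets for aged replicate 3, at 2 for young replicate 3 and at 0 for the rest. The yolk protein gene Yp1 had 6.05, 6.47 and 5.87 on the aged arrays and 4.02, 7.76 and 10.17 on the young arrays, so the young arrays differed more among themselves in this female-biased fat body gene than the ages did. The mean difference between 3' and 5' control probe sets, a sign of RNA quality and labelling, was 1.09, 1.01 and 1.03 on the aged arrays and 1.28, 1.46 and 1.38 on the young arrays (two-sided exact permutation test p = 0.10, the smallest that 3 arrays against 3 can give). This mean covers 22 pairs of probe sets, 17 of bacterial control transcripts and 5 of fly transcripts, so it mostly reads the bacterial ones. The fly pairs alone gave 1.96, 2.03 and 1.97 on the aged arrays and 2.35, 2.60 and 2.57 on the young arrays. The 3' minus 5' difference was lower on all aged arrays in both kinds of pairs. Its part in the differences of the marker genes was not tested.

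Neither gene for all glia passed. repo (CG31240), which encodes the glial homeodomain transcription factor, had 9.83, 9.84 and 9.73 on the aged arrays and 9.78, 9.83 and 9.86 on the young arrays. The ages overlapped, with means of 9.80 ± 0.06 in aged heads and 9.82 ± 0.04 in young heads (SD, n = 3 arrays each). The difference was -0.03 ± 0.07 (SE), with a 95% confidence interval of -0.18 to 0.13 (limma adjusted p = 0.819), that is, a ratio of aged over young heads of 0.883 to 1.09. In whole heads, fewer cells of a type and less RNA per cell cannot be told apart.

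drpr (CG2086) encodes Draper, the engulfment receptor through which glia clear severed axons and dying neurons. It had 10.35, 10.39 and 10.45 on the aged arrays and 10.44, 10.28 and 10.45 on the young arrays. The ages overlapped, and young replicate 2 was the lowest array. The difference was 0.01 ± 0.07 (SE), with a 95% confidence interval of -0.17 to 0.18 (limma adjusted p = 0.965). Its sign turned with median centring (-0.037), with quantile normalization (-0.016) and with array weights (-0.017), without passing. Blood cells also carry Draper. Against 15.8% of all genes higher and 10.7% lower, of 8 haemocyte markers 3 were higher (Hml, srp and NimC1), 2 were lower (Col4a1 and Pxn) and 3 did not pass. The mean level of the haemocyte markers was 7.83 to 7.95 on the aged arrays and 7.79 to 7.91 on the young arrays, with 1 marker below the median level of all probe sets (4.92), which is near background. Their part in the level of drpr was not tested.

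Of the 8 measured genes of the engulfment pathway that drpr feeds into, 0 rose, 1 fell and 7 did not pass (limma; at an unadjusted p under 0.05, 1 was higher and 2 were lower). Their median difference was 0.06, against 0.00 over all genes, of which 26.5% passed, 15.8% higher and 10.7% lower. The gene that fell was NimC4, which encodes Six-microns-under, a receptor for apoptotic cells on glia and macrophages. It had 4.89, 4.12 and 4.56 on the aged arrays and 5.81, 5.41 and 5.63 on the young arrays. The aged values lie near background, so the difference of -1.10 ± 0.19 (SE, limma adjusted p = 0.00788) may be compressed, which was not tested. Shark, the tyrosine kinase that binds the tail of Draper, did not overlap between the ages but did not pass (0.35 ± 0.11, limma adjusted p = 0.0609). It had 6.77, 6.72 and 7.11 on the aged arrays and 6.46, 6.50 and 6.59 on the young arrays. bsk did not overlap either and was lower at its brightest probe set without passing (-0.26 ± 0.08, limma adjusted p = 0.0527). Its other 2 probe sets differed by 0.17 and -0.13. Crk (0.14) and Stat92E (0.12) also did not overlap, as held for 40.8% of all probe sets and 65.8% at the levels of the marker genes.

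The gene for astrocyte-like glia was lower in aged heads. alrm (CG11910), which encodes a leucine-rich repeat protein of astrocyte-like glia, had 9.76, 9.68 and 9.66 on the aged arrays and 10.19, 10.21 and 10.13 on the young arrays. Every aged array lay below every young array, by a gap of 0.37. alrm fell by 0.48 ± 0.06 (SE) on the log2 scale, to 71.8% of its level in young heads (95% confidence interval of the difference -0.63 to -0.33, limma adjusted p = 0.00292).

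Of the other genes of astrocyte-like and neuropil glia, the 2 that passed were also lower in aged heads. Of 5 measured genes, 0 rose, 2 fell and 3 did not pass (limma; at an unadjusted p under 0.05, 0 were higher and 4 lower), with a median difference of -0.33. At the adjusted threshold the share that passed was 40%, from 5 genes, against 26.5% of all genes, with 10.7% of all genes lower. It is close to the 39.1% that passed among probe sets at the levels of the marker genes, with 16.4% lower. The unadjusted counts have no such share beside them. Gs2, which encodes glutamine synthetase, the enzyme that turns glutamate taken up by glia into glutamine, had 12.13, 12.09 and 11.93 on the aged arrays and 12.51, 12.45 and 12.34 on the young arrays (-0.38 ± 0.08, limma adjusted p = 0.0163). e (ebony), which encodes the enzyme that joins histamine and dopamine to beta-alanine, had 8.86, 8.57 and 8.93 on the aged arrays and 9.79, 9.40 and 9.17 on the young arrays. The young arrays of e spread widely, and its difference was -0.67 ± 0.17 (limma adjusted p = 0.0287). The call of e was lost without any single aged array and with a robust trended prior (limma adjusted p = 0.0512). The calls of e and Gs2 were both lost when young replicate 2 and aged replicate 3 were left out together. The part of cells other than glia in these differences was not tested. The GABA transporter gene Gat (-0.33 ± 0.14, limma adjusted p = 0.131) and the transporter gene Eaat2 (-0.17 ± 0.06, limma adjusted p = 0.0925) did not pass, although neither overlapped between the ages. The remaining gene of the list, htl, was not lower in aged heads. Its difference was 0.01 ± 0.08, its ages overlapped, and it did not pass.

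Of the genes placed in the wrapping class, bdl and nrv2 were lower in aged heads, and wrapper, which was placed there for its role in enclosing axons but marks cortex glia in the adult, did not pass. bdl (CG16857), or borderless, encodes an immunoglobulin-superfamily adhesion protein needed by glia that wrap photoreceptor axons. It had 9.32, 9.39 and 9.25 on the aged arrays and 10.62, 10.51 and 10.46 on the young arrays. The gap between the highest aged array and the lowest young array was 1.06, larger than the range within either age. bdl fell by 1.20 ± 0.07 (SE), or 2.30-fold, with a 95% confidence interval of -1.38 to -1.03 (limma adjusted p = 1.36e-04). Of all probe sets, 0.655% had a lower difference, and 0.65% passed with a fall of at least 2-fold.

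nrv2 (CG9261) encodes a beta subunit of the sodium-potassium ATPase that also serves septate junctions, and its regulatory DNA is widely used to drive transgenes in glia of axons and cortex. It had 9.77, 9.76 and 9.73 on the aged arrays and 10.66, 10.64 and 10.44 on the young arrays. The aged arrays lay close together, with an SD of 0.02 against 0.12 on the young arrays, and all were below the young ones. nrv2 fell by 0.83 ± 0.08 (SE), to 56.4% of its level in young heads (limma adjusted p = 8.05e-04). nrv1, which encodes another beta subunit, differed by -0.09 (limma adjusted p = 0.487).

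wrapper (CG10382) encodes an immunoglobulin-superfamily protein first known from glia that enclose commissural axons. It had 8.09, 8.20 and 7.95 on the aged arrays and 7.85, 8.03 and 7.74 on the young arrays. The ages overlapped, since young replicate 2 lay above aged replicate 3, and wrapper was the dimmest of the 9 genes. The difference was 0.21 ± 0.10 (SE), with a 95% confidence interval of -0.03 to 0.44 (limma adjusted p = 0.195).

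Genes for ligands, receptors and partners of wrapping and cortex glia went both ways. Of 9 measured, 2 rose, 2 fell and 5 did not pass, with a median difference of -0.01. Among all genes, 15.8% rose and 10.7% fell. tutl, or turtle, which encodes the partner on photoreceptor axons that Bdl on wrapping glia binds, had 8.67, 8.72 and 8.86 on the aged arrays and 9.78, 9.49 and 9.51 on the young arrays. Every aged array of tutl was below every young one, and it fell by 0.84 ± 0.10 (SE, limma adjusted p = 0.00178). Its other 4 probe sets differed by -0.47, -0.13, -0.12 and 0.44, and of these the first passed. LanB1, which encodes a laminin chain, fell by 0.51 ± 0.13, a call lost without aged replicate 1, aged replicate 2 or young replicate 3. The receptor gene Egfr rose by 0.36 ± 0.07 (limma adjusted p = 0.00906) and the gene of its ligand spi rose by 0.31 ± 0.07 (limma adjusted p = 0.0153), a call lost without aged replicate 1 or aged replicate 3. Of 5 photoreceptor markers, which come from the cells whose axons are wrapped, 0 rose, chp and trp fell, and 3 did not pass (limma; at an unadjusted p under 0.05, 0 were higher and 2 lower). Of the 6 arrays left out in turn, trp kept its call only without young replicate 1, and lost it with a block for the replicate number, leaving 1 marker lower. Their mean level was 12.49 to 12.60 on the aged arrays and 12.72 to 12.75 on the young arrays, with 0 markers near background, and their part in the fall of bdl was not tested.

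The genes of the blood-brain barrier split, with Inx2 lower, Gli higher and moody not past the threshold. Inx2 (CG4590) encodes an innexin, a gap junction protein that couples barrier glia and also joins epithelial cells. It had 9.31, 9.11 and 9.06 on the aged arrays and 9.99, 9.89 and 9.77 on the young arrays. The ages did not overlap, with a gap of 0.47, and Inx2 fell by 0.73 ± 0.09 (SE), to 60.5% of its level in young heads (limma adjusted p = 0.00236). Of the 6 other innexin genes measured, 0 rose, 1 fell and 5 did not pass (limma; at an unadjusted p under 0.05, 0 were higher and 4 lower), and 4 of the 6 were near background. The share that passed, 16.7%, is below the 26.5% of all genes. The one that fell was Inx7 (-0.61 ± 0.09), which lay near background at both ages. ogre, which encodes the usual partner innexin of Inx2 in glia, differed by -0.22 ± 0.09 and did not pass (limma adjusted p = 0.120).

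Gli (CG3903) encodes Gliotactin, a protein of the corners where septate junctions of several cells meet, in barrier glia and in epithelia. It had 8.93, 8.82 and 9.05 on the aged arrays and 8.55, 8.56 and 8.42 on the young arrays. Every aged array was above every young array, by a gap of 0.26, the smallest among the 5 marker genes whose ages did not overlap. Gli rose by 0.42 ± 0.08 (SE), to 134% of its level in young heads (95% confidence interval of the difference 0.23 to 0.61, limma adjusted p = 0.0119). The call ended when young replicate 2 and aged replicate 3 were left out together (0.38, limma adjusted p = 0.0506). Its probe set is of a kind that other genes can share, although the probe table names Gli alone, and the same holds for nrv2.

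moody (CG4322) encodes a G protein-coupled receptor that organises the junctions of subperineurial glia. It had 9.95, 9.68 and 9.95 on the aged arrays and 9.92, 9.80 and 9.90 on the young arrays. The ages overlapped, and aged replicate 2 was the lowest array. The difference was -0.01 ± 0.09 (SE), with a 95% confidence interval of -0.23 to 0.21 (limma adjusted p = 0.941).

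**Figure D2:**
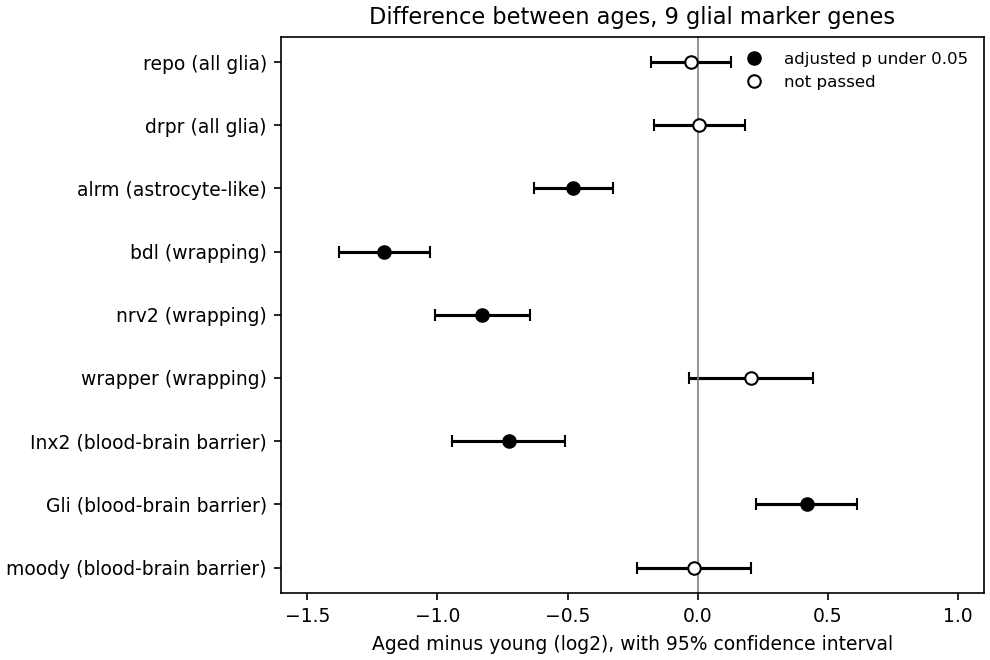
Difference between aged and young heads on the log2 scale (horizontal axis) for each marker gene, with its glial class in parentheses and 95% confidence intervals from limma; filled points passed at an adjusted p under 0.05. The blood-brain barrier class holds a gene that was lower (Inx2, -0.73) and one that was higher (Gli, 0.42), bdl had the lowest value (-1.20), and the intervals of repo, drpr, wrapper and moody cross 0.

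Of 19 other septate junction genes, 4 rose, 1 fell and 14 did not pass, with a median difference of 0.19. The share that passed, 26.3%, is close to that of all genes (26.5%, with 15.8% higher and 10.7% lower). Among probe sets at the levels of the marker genes, 39.1% passed, 22.7% higher and 16.4% lower. Cont, which encodes the adhesion protein Contactin of the junction's core, had 9.19, 9.14 and 9.33 on the aged arrays and 8.79, 8.78 and 8.75 on the young arrays. All aged arrays were above all young ones, and Cont rose by 0.45 ± 0.07 (SE, limma adjusted p = 0.00602). bou, which encodes a small Ly6 protein that junctions need, rose by 0.34 ± 0.06, and Tsf2, which encodes a transferrin of the junction, rose by 0.32 ± 0.08. The call of bou ended when young replicate 2 and aged replicate 3 were both left out, and that of Tsf2 without aged replicate 1, aged replicate 3 or young replicate 3. dlg1, a scaffold gene also used at synapses, rose by 0.46 ± 0.09 at its brightest probe set and did not pass without aged replicate 1, and its other 3 probe sets differed by -0.40, -0.18 and 0.50. Of these the first passed as lower and the last as higher, so dlg1 has no single direction. Nrg, which encodes Neuroglian, an adhesion protein also found on axons, had 9.40, 9.45 and 9.51 on the aged arrays and 9.94, 10.10 and 9.90 on the young arrays. It fell by 0.53 ± 0.08 (SE, limma adjusted p = 0.00403), with -0.44 and -0.28 at its other probe sets, both of which passed. Between 2 and 7 of the 19 genes rose, and 1 or 2 fell, over 14 alternatives that test all 19.

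Genes of moody signalling and of transport across the barrier also went both ways. Of 8 measured, each at its brightest probe set, 1 rose, 3 fell and 4 did not pass, with a median difference of -0.07. The shares over all genes were 15.8% higher and 10.7% lower. Mdr65, which encodes the drug efflux pump of subperineurial glia, had 8.09, 8.04 and 8.02 on the aged arrays and 8.89, 8.74 and 8.81 on the young arrays. The ages were well separated, and Mdr65 fell by 0.76 ± 0.07 (SE, limma adjusted p = 6.30e-04). loco, which encodes a regulator of G protein signalling that acts with Moody, differed by -0.04 (limma adjusted p = 0.738), and Tret1-1, the trehalose transporter gene of perineurial glia, by -0.09 (limma adjusted p = 0.347). The G protein gene Galphao fell by 0.28 ± 0.08, a call kept, among the 6 arrays left out in turn, only without young replicate 2. The lipoprotein receptor gene LpR1 fell by 0.28 ± 0.06 at its brighter probe set, a call lost without any single aged array. Its other probe set, near background at both ages, passed as higher (1.58, limma adjusted p = 7.19e-04). So LpR1 has no single direction. The gene that rose, the pump gene Mdr50 (0.68 ± 0.10), was near background at both ages.

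Of 4 measured genes of glial fate, 0 rose, 1 fell and 3 did not pass (limma; at an unadjusted p under 0.05, 1 was higher and 2 were lower), a share of 25% that is close to the 26.5% of all genes. The fall was that of pros, a transcription factor gene of astrocyte-like glia and of neurons (-0.28 ± 0.08, limma adjusted p = 0.0420). It kept its call only when young replicate 3 was the array left out, among the 6 arrays left out in turn. gcm and gcm2, the embryonic switch genes that turn on repo, were near background at both ages, with mean levels of 3.45 and 3.14 in aged heads and 3.72 and 2.89 in young heads.

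**Figure D3:**
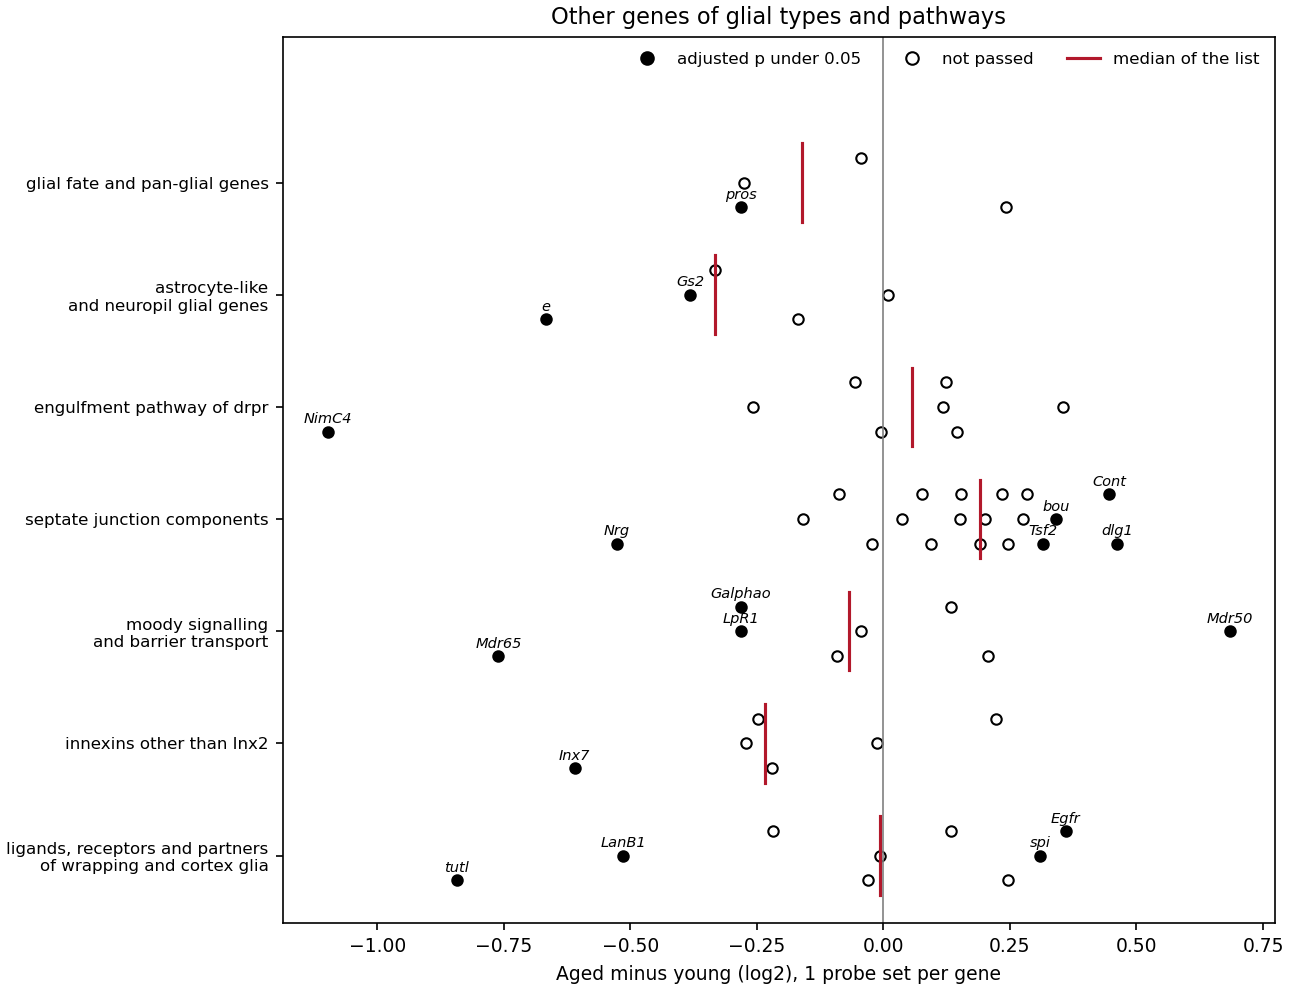
Difference between aged and young heads on the log2 scale (horizontal axis) for the measured genes of 7 lists, 1 probe set per gene; filled, named points passed at an adjusted p under 0.05 and the red line is the median of a list. The astrocyte-like list has its median at -0.33 and the septate junction list at 0.19, and no list has all its genes past the threshold.

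Inx2, Gli and nrv2 are also genes of epithelia, and the heads hold epidermis. Beside the counts below stand the shares of all genes: 26.5% passed, 15.8% higher and 10.7% lower. Of 6 epidermis and cuticle markers, 0 rose, 4 fell and 2 did not pass (limma; at an unadjusted p under 0.05, 0 were higher and 5 lower). Their mean level was 5.07 to 5.22 on the aged arrays and 6.82 to 7.01 on the young arrays, with 2 markers near background. Of 5 muscle markers, 0 rose, 4 fell and 1, itself near background, did not pass (limma; at an unadjusted p under 0.05, 0 were higher and 4 lower). Their mean level was 7.17 to 7.74 on the aged arrays and 8.39 to 9.02 on the young arrays. Of 8 neuron markers, 1 rose (Rbp9), 2 fell (fne and brp) and 5 did not pass, with mean levels of 8.92 to 9.12 on the aged arrays and 9.07 to 9.18 on the young arrays, and 0 were near background. Rbp9 rose by 0.58 ± 0.08 (SE, limma adjusted p = 0.00298) at its brighter probe set, a call kept under all 14 alternatives that test it. Its other probe set, near background at both ages, differed by -0.16 without passing. The fall of brp was at its brightest probe set (-0.44), and its other 3 probe sets differed by 0.46, 0.05 and 0.11 without passing. So brp has no single direction. Without any single aged array, or without young replicate 3, 0 neuron markers fell. Of 7 fat body markers 0 passed (limma; also 0 at an unadjusted p under 0.05), with mean levels of 8.18 to 8.52 on the aged arrays and 7.97 to 9.68 on the young arrays. The part of these cell types in the differences of the marker genes was not tested.

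Set against repo on the same array, 6 of the other 8 marker genes did not overlap between the ages. Of all other probe sets, 37.6% did not overlap when treated the same way, and 63.6% of those at the levels of the marker genes, so the count is near that of probe sets as bright. The log2 value of bdl minus that of repo was -0.50, -0.45 and -0.48 on the aged arrays and 0.84, 0.68 and 0.59 on the young arrays, a change of -1.18 relative to repo. The same change was -0.80 for nrv2, -0.70 for Inx2, -0.45 for alrm, 0.45 for Gli and 0.23 for wrapper, and in each of these the ages did not overlap. The gap between the ages was 1.04 for bdl and 0.01 for wrapper, whose own values overlapped. The change relative to repo was 0.03 for drpr and 0.01 for moody, whose ages overlapped. A two-sided exact permutation test over arrays gave p = 0.10 for each of the 6 that did not overlap, the smallest it can give, and 0.133 adjusted over the 8 comparisons, so this design cannot pass 0.05. Only the change of such a value between the ages is meaningful, since levels of different probe sets are not on a common scale.

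The range within an age was widest for wrapper on the young arrays (0.30) and moody on the aged arrays (0.28), larger than the differences of these genes between the ages, and narrowest for nrv2 on the aged arrays (0.04). Aged replicate 3 was the lowest aged array for 6 of the 9 genes, and young replicate 3 was the lowest young array for 6 of the 9. The genes most like bdl over the 6 arrays, among 7528 candidate genes, were rdhB (Pearson's r 0.999), CG9400 (0.998) and Cpr11B (0.998). These had differences of -0.68, -0.83 and -1.11, and 504 candidates had an r above 0.95 with bdl, since the r mostly reads the step between the ages. The genes most like repo were 7B2 (r 0.981), CG3253 (0.979) and sei (0.976), with differences of -0.05, -0.11 and -0.07, and 8 candidates had an r above 0.95.

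**Figure D4:**
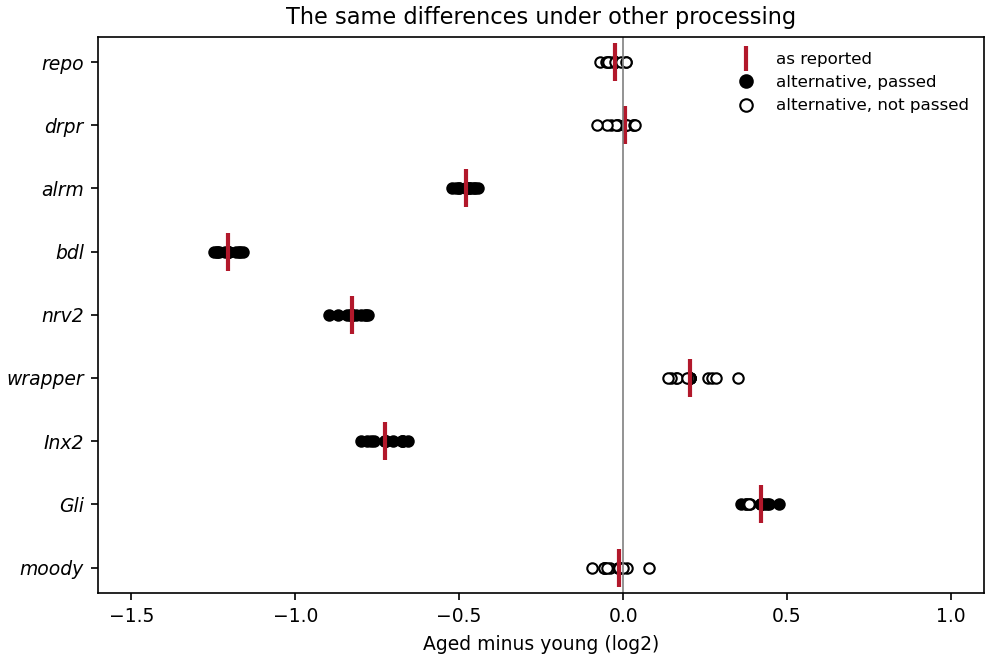
Difference between aged and young heads on the log2 scale (horizontal axis) for each marker gene as reported (red bar) and under 14 or 15 other ways of processing (points, filled where the adjusted p was under 0.05). bdl, nrv2, Inx2 and alrm passed under every alternative in which they were tested, Gli under 13 of 14, and repo, drpr, wrapper and moody under 0.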

How the data were processed

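RNA of fly heads was hybridised to Affymetrix arrays, 3 per age. The deposited values are RMA expression on the log2 scale, made with RMA per the submitters' processing notes, which also name limma; no version or setting is given in the sources used here. RMA corrects background, equalises the distributions of the arrays and combines the probes of each probe set, so a change in total RNA per head is not seen. Of 18952 probe sets, 183 controls stayed out. Names came from the platform's probe table, matched to RefSeq (Release 6) by gene identifier for 13544 of 13647 probe sets with a single symbol; 402 had several and 4720 none here, and these stayed unnamed. The brightest probe set stood for a gene.

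The test was limma's (version 3.58.1, R 4.3.3; lmFit, eBayes, all 6 arrays, no covariates), two-sided, with Benjamini-Hochberg adjustment over all 18769 probe sets and a threshold of 0.05. The fit was tested on simulated data. Shares of all genes are given at the adjusted threshold only, so counts at an unadjusted p cannot be set against them. The alternatives were a robust trended prior, a filter at the median level, median centring, quantile normalization, array weights, fewer probe sets (those not shared, or 1 per gene), a block for the replicate number, and arrays left out. The marker genes, the lists and the alternatives were chosen with earlier results of these data known. The text names all 9 marker genes and, from each list of other glial genes, up to 3 that passed with the largest difference, or all where 5 or fewer passed in a direction, or otherwise the gene with the smallest p. Shark, bsk, Crk, Stat92E, Gat, Eaat2, htl, ogre, loco, Tret1-1, nrv1, gcm, gcm2 and Yp1 were named after their values were seen. List members without a probe set of their own were not analysed here. drpr was placed with all glia because several glial types use it, and wrapper with wrapping glia for its role in enclosing axons, although it marks cortex glia in the adult. Precision is limited by the number of arrays.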

Additional observations from a re-analysis of the deposited data

How the results depend on the processing

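The calls of bdl, nrv2, Inx2 and alrm held under every alternative in which each was tested (15, or 14 for nrv2 and Inx2), with adjusted p up to 0.0281, and their differences ranged from -1.25 to -1.16 for bdl, -0.90 to -0.78 for nrv2, -0.80 to -0.66 for Inx2 and -0.52 to -0.44 for alrm. Gli ranged from 0.36 to 0.48, and its call ended without young replicate 2 and aged replicate 3 together (0.38, adjusted p = 0.0506), which left 0 marker genes higher. With the _s_at, _x_at and _a_at probe sets left out, 5 marker genes remained to be tested, of which 2 passed, 0 higher and 2 lower. The values of repo, drpr and moody lay close to 0 and turned in sign without passing: drpr stood at -0.037 with arrays centred on their medians, -0.016 with quantile normalization, -0.017 with array weights and -0.078 when young replicate 2 and aged replicate 3 were both left out, and repo at 0.0079 in the last of these. With single arrays left out, drpr ranged from -0.050 (without young replicate 2) to 0.036 (without young replicate 3), repo from -0.046 to 0.0075 (without aged replicate 3), and moody from -0.059 (without aged replicate 1) to 0.080 (without aged replicate 2). wrapper ranged from 0.14 to 0.35 and passed under 0 alternatives.

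Of all probe sets, 4071 changed, 2438 higher and 1633 lower. Leaving out single arrays gave 2302 to 4027, with 1377 to 2371 higher and 925 to 1659 lower. Without young replicate 2 and aged replicate 3, both removed, the count was 2492, with 1462 higher and 1030 lower. Calls in the higher direction made up 59.9% of the total, against 48.8% with arrays centred on their medians. Over 14 alternatives, 1 of which drops genes near background, 0 to 3 astrocyte-like genes fell, 0 or 1 engulfment gene rose and 1 or 2 fell, 1 or 2 barrier genes rose and 1 to 3 fell, 0 or 1 other innexin rose and 0 to 3 fell, and 1 or 2 partners of wrapping glia rose and 1 to 3 fell. The same alternatives gave 2 or 3 haemocyte markers higher and 2 lower, 3 or 4 muscle and 4 or 5 cuticle markers lower, 1 or 2 photoreceptor markers lower, and 1 or 2 neuron markers higher and 0 to 3 lower. With the replicate number as a block, 3343 changed and the same 5 marker genes passed (adjusted p of Gli 0.0357). Same-numbered arrays did not all deviate together (r of deviations 0.10, -0.02 and -0.06), so the numbers are not shown to pair the arrays. The 3' minus 5' difference between the ages was -0.33, -0.52 from fly control transcripts alone, -0.28 from bacterial ones, and -0.38 to -0.29 with single arrays left out.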
